A study of Mus musculus with 17 samples.

Results

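Gata4, Gata6, Foxa2, Eomes, Mixl1, Gsc, Cer1, Cdx2, Elf5 and Tead4 encode regulators of the first embryonic lineages, and their transcripts were followed in mouse stem cell lines. The 10 genes were picked by symbol from 23891 gene symbols in the tables, with earlier results of these data known, and each gene with several transcripts was represented by the RefSeq transcript with the highest mean FPKM over the 17 samples. FPKM is a count of sequenced fragments normalised to transcript length and sequencing depth, so that levels of different genes can be set side by side.

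RNA sequencing covered spermatogonial stem and progenitor cells (SSCs), MASCs, the multipotent stem cells that arise spontaneously when adult SSCs are cultured for long, embryonic stem cells (ESCs), induced pluripotent stem (iPS) cells, haematopoietic stem and progenitor cells (HSCs) and mouse embryonic fibroblasts (MEFs). SSC.1 and SSC.2 were of the Oct4-GFP strain, SSC.3 was C57Bl/6J and SSC.4 was 129mix, and the donors of SSCs were adult mice over 3 months old. MASC.1 and MASC.2 were Oct4-GFP, MASC.3 and MASC.4 were 129mix, and MASC.5 and MASC.6 were Gt(ROSA26)Sor-lacZ. ESC.1 was Oct4-GFP and ESC.2 was 129mix. Both iPS lines and the MEF sample were 129mix, and both HSC samples were C57Bl/6J. SSCs were expanded on MEF feeder cells with GDNF, bFGF and EGF, and were plated on gelatin before collection to remove feeders. MASCs, ESCs and iPS cells were kept on MEF feeders in medium with LIF. MASC and iPS lines were founded from picked colonies with ESC morphology, the iPS lines after doxycycline induction of a cassette of reprogramming factors in MEFs. HSCs were lineage-negative bone marrow cells expanded on endothelial feeders. The sources used here do not say whether the MASC lines came from the SSC lines sequenced, and no sample was directed to differentiate.

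These regulators act at successive branch points of the early embryo. Gata4 and Gata6 encode zinc finger factors of the primitive endoderm, the lineage that gives rise to the yolk sac, and later of heart and gut, and Foxa2 encodes a forkhead factor of the node and definitive endoderm. Eomes (a T-box factor), Mixl1 and Gsc (homeodomain factors) act in the primitive streak, where mesendoderm forms, and Cer1 encodes a secreted antagonist of Nodal, BMP and Wnt made by anterior visceral and definitive endoderm. Cdx2, Elf5 and Tead4 act in trophectoderm, the first epithelium of the embryo, in which Tead4 works with Yap1 upstream of Cdx2. Cultured pluripotent cells are known to hold most lineage regulators at low levels and to contain occasional primitive endoderm-like cells.

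Markers matched the labelled cell types in their main order. The summed FPKM of 8 pluripotency markers was 3244 to 4813 in MASCs, 4180 to 4376 in ESCs and 4835 to 6477 in iPS cells, against 28.3 to 171 in SSCs, and each of the 8 markers was at or above 1 FPKM in all 10 MASC, ESC and iPS lines. The summed FPKM of 8 SSC markers was 609 to 856 in SSCs and 115 to 162 in MASCs. Fibroblast markers set some samples apart from others of the same label. The summed FPKM of 10 fibroblast markers was 6768 in MEFs, 1289 in MASC.1 against 21.9 to 162 in the other MASC lines, 433 in ESC.1 against 77.2 in ESC.2, 1049 in SSC.3 and 485 in SSC.1 against 15.7 and 85.7 in SSC.2 and SSC.4, and 503 in HSC.2 against 2.80 in HSC.1. A transcript at 1 FPKM had a read coverage of 1.26 to 3.23 per base across the 17 libraries, and values well below that level rest on few reads. In bulk RNA, fewer cells that express a gene and less RNA per cell cannot be told apart.

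The promoters of Gata4, Cer1, Mixl1 and Foxa2 are shown because they carry the sequence next to which these transcripts start. These genes were picked by hand, and the promoters of the other regulators, Tead4 and Gata6 among them, are not shown. Each window is the 250 bases upstream of the transcript start given in the tables, read 5′ to 3′ on the strand of the gene from the mm9 genome (NCBIM37). All 5 lie on the minus strand, at chr14:63864098-63864347 for Gata4, chr4:82531056-82531305 for Cer1, chr1:182627166-182627415 for Mixl1, chr2:147871685-147871934 for the Foxa2 transcript used here and chr2:147872706-147872955 for a second Foxa2 start. Capitals mark matches on either strand to short motifs. The motifs are spelled out after the windows.
Gata4: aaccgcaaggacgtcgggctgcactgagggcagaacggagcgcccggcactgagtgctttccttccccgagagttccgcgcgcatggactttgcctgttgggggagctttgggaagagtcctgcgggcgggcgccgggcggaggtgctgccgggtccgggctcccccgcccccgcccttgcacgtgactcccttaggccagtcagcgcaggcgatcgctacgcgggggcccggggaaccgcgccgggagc
Cer1: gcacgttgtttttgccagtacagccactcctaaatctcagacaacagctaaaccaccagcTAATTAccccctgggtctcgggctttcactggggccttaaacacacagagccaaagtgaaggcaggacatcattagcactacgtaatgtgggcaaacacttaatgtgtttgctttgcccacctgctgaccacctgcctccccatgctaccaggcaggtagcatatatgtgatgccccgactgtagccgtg
Mixl1: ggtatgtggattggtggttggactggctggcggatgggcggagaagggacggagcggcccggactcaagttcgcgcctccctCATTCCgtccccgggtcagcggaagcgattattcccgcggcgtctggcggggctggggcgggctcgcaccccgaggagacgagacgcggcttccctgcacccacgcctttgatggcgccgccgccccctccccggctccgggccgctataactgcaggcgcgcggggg
Foxa2 NM_001291065: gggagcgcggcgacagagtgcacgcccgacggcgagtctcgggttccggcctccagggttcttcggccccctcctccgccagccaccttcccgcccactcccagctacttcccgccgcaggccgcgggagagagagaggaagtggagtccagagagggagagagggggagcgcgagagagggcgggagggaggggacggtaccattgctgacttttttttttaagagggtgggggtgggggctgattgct
Foxa2 NM_010446: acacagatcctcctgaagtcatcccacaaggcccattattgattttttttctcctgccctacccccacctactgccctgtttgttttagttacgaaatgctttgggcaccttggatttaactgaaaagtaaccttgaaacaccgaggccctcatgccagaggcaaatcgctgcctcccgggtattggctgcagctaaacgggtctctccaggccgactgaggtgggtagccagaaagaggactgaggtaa
The TATA box was searched as TATAAA, which 11.6% of 19290 promoters of the same length held on either strand. Sites of GATA factors were searched as AGATAA, held by 8.6% of those promoters, and sites of forkhead factors as TGTTTAC, held by 2.5% of them. T-box sites were searched as AGGTGTGA, held by 0.933% of the promoters, homeodomain sites as the palindrome TAATTA, held by 4.37%, and TEAD sites as GGAATG, held by 11.2%. In these 5 windows the only matches were the homeodomain letters in Cer1, beginning 190 bases upstream of the start, and the TEAD letters on the opposite strand in Mixl1, beginning 168 bases upstream, and the lack of other matches says only that these letters are not in these windows. The Mixl1 window held 31 CG dinucleotides and the Gata4 window 29, against a median of 11, and 7.51% and 9.68% of all promoters held as many. The Cer1 window held 5, and 69.1% of all promoters held as many. The first Foxa2 window lies in an intron of the longer transcript. The Foxa2 windows differed, with 20 CG dinucleotides upstream of the start used here and 6 upstream of the second start. The transcript from the first start carried 84.1% of all Foxa2 FPKM summed over the 17 samples and the one from the second start 14.3%. Both lie at the same locus, and the split between them is an estimate of the quantification software.

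Many values of the 10 genes were low in the pluripotent lines, at a share not far above that of all transcripts. The mean over these lines was under 1 FPKM for 5 of the 10 genes. Of the 100 values in the 10 MASC, ESC and iPS lines, 63 were under 1 FPKM, and over all transcripts 54.1% of values in the same lines were. Cdx2 and Elf5 were under 1 FPKM in all 17 samples, and Mixl1 in all 10 pluripotent lines. Tead4 was at or above 1 FPKM in all 10 of them, and the Eomes transcript used here in 9.

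**Figure D1:**
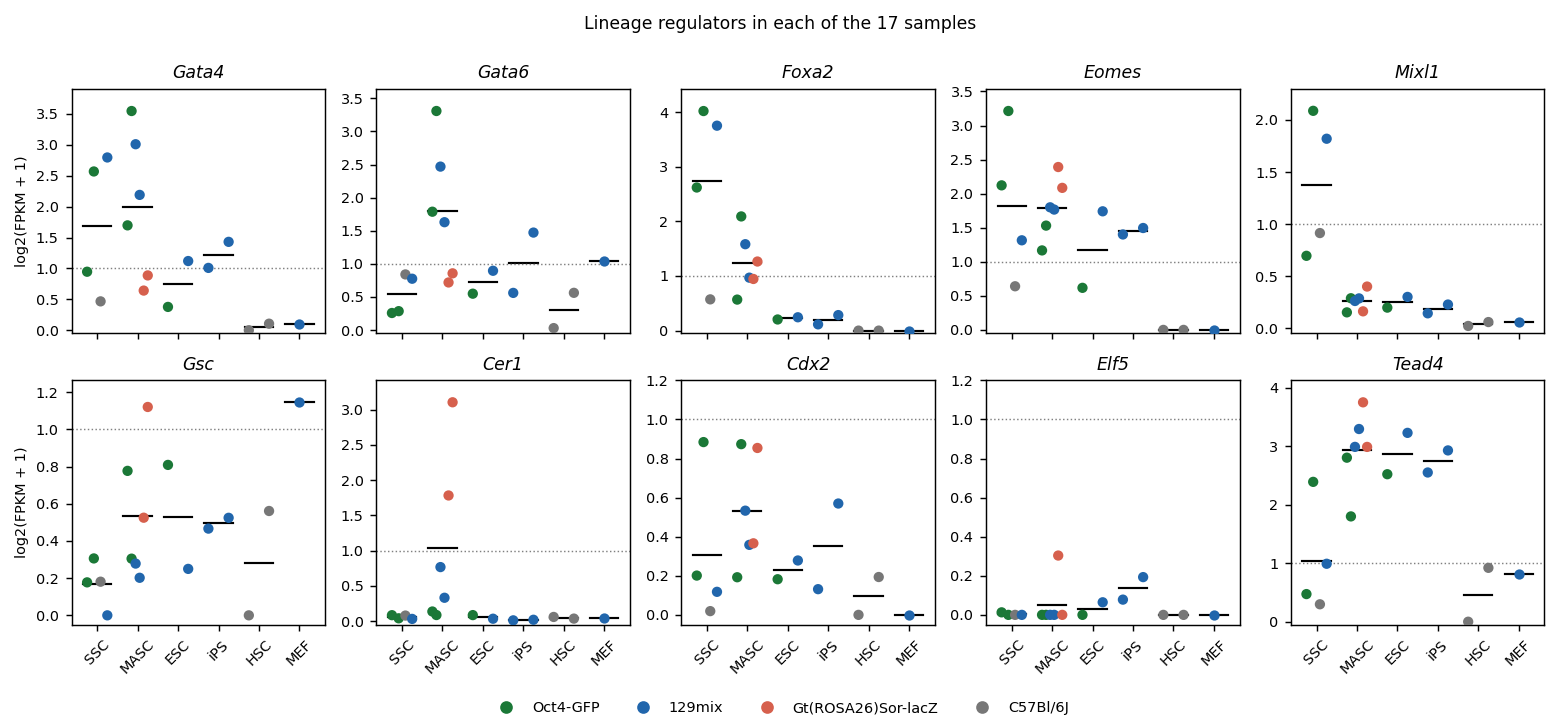
Level of each regulator on the log2(FPKM + 1) scale in every sample, by cell type. Each point is 1 sample coloured by strain, bars are group means and the dotted line is 1 FPKM. Gata4, Gata6 and Cer1 spread widely among the 6 MASC lines, Mixl1 is higher in the 4 SSC lines, and Tead4 reaches 12.5 FPKM in MASC.5.

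Among the endoderm regulators, Gata4 was at 0.299 FPKM in ESC.1, 1.17 in ESC.2, 1.01 in iPS.1 and 1.70 in iPS.2. In the 6 MASC lines it was at 2.24, 10.7, 7.06, 3.56, 0.560 and 0.850 FPKM from MASC.1 to MASC.6. MASC.2 and MASC.3 were highest, and both Gt(ROSA26)Sor-lacZ lines lay within the range of ESC and iPS lines. Gata6 was at 0.463 and 0.860 FPKM in ESC.1 and ESC.2 and at 0.475 and 1.77 in iPS.1 and iPS.2. In MASC.1 to MASC.6 it was at 2.45, 8.91, 4.54, 2.09, 0.646 and 0.811 FPKM. As for Gata4, MASC.2 was highest and MASC.5 lowest. Foxa2 was at 0.152 and 0.184 FPKM in ESC.1 and ESC.2, at 0.0827 and 0.218 in iPS.1 and iPS.2, and at 0.482, 3.26, 1.99, 0.958, 0.926 and 1.40 in MASC.1 to MASC.6. Every MASC line was above every ESC and iPS line for Foxa2. In SSC.1 to SSC.4, Foxa2 was at 5.15, 15.2, 0.487 and 12.5 FPKM, which made SSCs the group with the highest mean, with SSC.3 standing apart at the level of the lowest MASC line. Gata4 in SSC.1 to SSC.4 was at 0.928, 4.94, 0.383 and 5.95 FPKM, and Gata6 at 0.195, 0.219, 0.790 and 0.711. SSC cultures were started from dissociated seminiferous tubules. The summed FPKM of 9 testis somatic markers was 30.7, 25.3, 36.3 and 32.9 in SSC.1 to SSC.4. Of these markers, Wt1 was at 20.9, 8.17, 14.3 and 13.3 FPKM and Sox9 at 1.75, 12.4, 3.23 and 9.56. The part of testis somatic RNA in the SSC values was not tested. Ordered by mean log2(FPKM + 1), Gata4 stood at 2.00 in MASCs, 1.70 in SSCs, 1.22 in iPS cells, 0.75 in ESCs, 0.10 in MEFs and 0.05 in HSCs, and of the neighbours in this order only ESCs and MEFs did not overlap. For Gata6 the order was MASCs, MEFs, iPS cells, ESCs, SSCs and HSCs, with overlap between all neighbours. For Foxa2 it was SSCs, MASCs, ESCs and iPS cells, followed by MEFs and HSCs, where MASCs did not overlap with ESCs, nor iPS cells with MEFs. In MEFs and HSCs the Foxa2 transcript used here was at 3.52e-05 FPKM or less, with lower confidence bounds of 0, so these 2 groups are not ordered. The share of all transcripts without overlap between such neighbours was not counted.

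Among the regulators of the primitive streak, Eomes was the most abundant. It was at 0.535 and 2.34 FPKM in ESC.1 and ESC.2, at 1.64 and 1.82 in iPS.1 and iPS.2, and at 1.25, 1.89, 2.48, 2.40, 4.24 and 3.24 in MASC.1 to MASC.6. The 2 Gt(ROSA26)Sor-lacZ lines were the highest of the 10. In SSC.1 to SSC.4 it was at 3.35, 8.27, 0.559 and 1.49 FPKM, a spread that enclosed all MASC lines. A second Eomes transcript (NM_001164789, 13.1% of Eomes FPKM) was at 0.833 FPKM in ESC.1, above the transcript used here. It was at 0.605 and 1.08 in iPS.1 and iPS.2, at 0.220 to 0.380 in MASC.1 to MASC.4, and below 0.001 in ESC.2, MASC.5 and MASC.6. The lines thus also differ in how the software split Eomes between transcripts. Mixl1 lay between 0.104 and 0.319 FPKM in the 10 pluripotent lines and was at 0.619, 3.25, 0.884 and 2.53 in SSC.1 to SSC.4, with no overlap between SSCs and any pluripotent line. By mean log2(FPKM + 1), Mixl1 stood at 1.38 in SSCs, 0.26 in MASCs, 0.25 in ESCs and 0.18 in iPS cells, and the last 3 overlapped. For Eomes the order was SSCs, MASCs, iPS cells and ESCs, at 1.82, 1.79, 1.45 and 1.18, with overlap between all neighbours. Gsc did not exceed 1.17 FPKM in any line, its value in MASC.6, and was highest in MEFs, at 1.22 FPKM. The next values were 0.752 FPKM in ESC.1 and 0.713 in MASC.1, the lines with the most fibroblast marker RNA among ESCs and MASCs. The part of fibroblast RNA in these Gsc values was not tested.

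Cer1 was close to 0 outside the MASC lines, at 0.0608 FPKM or less in ESC, iPS and SSC lines. In MASC.1 to MASC.6 it was at 0.0990, 0.0616, 0.701, 0.258, 2.44 and 7.59 FPKM. The 2 Gt(ROSA26)Sor-lacZ lines were highest, the 129mix lines followed, and both Oct4-GFP lines were at a level near that of ESC.1. The deposited lower confidence bound of Cer1 was above 0 in 5 of the 10 pluripotent lines, all of them MASC lines, and not in MASC.2. The lack of overlap between MASCs and the other pluripotent lines thus rests on 0.0616 FPKM in MASC.2 against 0.0608 in ESC.1, values that their bounds do not separate.

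Of the trophectoderm regulators, only Tead4 was clearly present. It was at 4.75 and 8.39 FPKM in ESC.1 and ESC.2, at 4.87 and 6.63 in iPS.1 and iPS.2, and at 6.00, 2.49, 6.95, 8.83, 12.5 and 6.95 in MASC.1 to MASC.6. In SSC.1 to SSC.4 it was at 0.388, 4.25, 0.230 and 0.989 FPKM, and SSC.2 alone reached the range of the pluripotent lines. A second Tead4 transcript (NM_001080979, 25.8% of Tead4 FPKM) was at 0.606, 1.98, 0.261 and 1.35 FPKM in SSC.1 to SSC.4. That was above the transcript used here in SSC.1, SSC.3 and SSC.4. In MASC lines the second transcript was at 1.72 to 4.35 FPKM. Mean log2(FPKM + 1) of Tead4 was 2.94 in MASCs, 2.88 in ESCs and 2.74 in iPS cells, all overlapping, and 1.04 in SSCs. Cdx2 ranged from 0.0955 to 0.832 FPKM in the pluripotent lines, with MASC.2 and MASC.6 highest, and from 0.0134 to 0.846 in SSCs. Elf5 was at 0.234 FPKM in MASC.5, at 0.143 in iPS.2 and at 0.0556 in iPS.1, and at 7.58e-05 or less in the other 5 MASC lines. Its lower confidence bound was above 0 in 3 of the 10 pluripotent lines. The second Elf5 transcript (NM_001145813, 39.9% of Elf5 FPKM) was at 0.0193 to 0.0664 FPKM in those 5 MASC lines and close to 0 in MASC.5 and both iPS lines, so the lines also differ in how the software split Elf5 between transcripts. In HSCs and MEFs, the transcripts used here of Foxa2, Eomes, Mixl1, Cer1 and Elf5 were at 0.0418 FPKM or less. Other transcripts of Foxa2 and Eomes reached 0.109 and 0.0813 FPKM in HSC.2, and 0.0520 and 0.0435 in MEFs. Gata6, at 1.07 FPKM, and Tead4, at 0.766, were detected in MEFs, and both were higher in HSC.2, at 0.476 and 0.895, than in HSC.1, where they were at 0.0204 and listed at 0.

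The comparison of MASCs with SSCs asks which regulators differ between germline cells and converted cells. Tead4 was higher and Mixl1 lower in MASCs, and the other 8 regulators did not pass the test. Over all 32661 transcripts, 11.4% were called higher and 19.5% lower in MASCs, 30.9% in either direction, so that 2 of 10 called genes is no more than the share of all transcripts. The Tead4 transcript used here was higher by 1.90 on the log2(FPKM + 1) scale (SE 0.47, limma adjusted p = 0.0122). The exact permutation p was 0.00952 (two-sided), and 5 of 6 MASC lines were above all 4 SSC lines. By the same exact test, 39.0% of all transcripts were under 0.05. The difference was 0.87 within Oct4-GFP lines, with 2 lines of each cell type, and 2.15 within 129mix lines, with 1 SSC line. With strain as a block it was 1.37 and no longer called (limma adjusted p = 0.126). Mixl1 was lower by 1.12 (difference −1.12, SE 0.25, limma adjusted p = 0.00717), and its lines did not overlap (exact permutation p = 0.00476, the smallest that 6 against 4 lines allow), as was the case, with MASCs lower, for 15.4% of all transcripts. Within Oct4-GFP lines the Mixl1 difference was −1.17, and within 129mix lines it was −1.55. Both genes were lower in SSC.1 and SSC.3, with fibroblast marker sums of 485 and 1049, than in SSC.2 and SSC.4, with 15.7 and 85.7. Tead4 was at 0.388 and 0.230 FPKM in the first pair and 4.25 and 0.989 in the second. Mixl1 was at 0.619 and 0.884 FPKM against 3.25 and 2.53. The part of fibroblast RNA in these differences was not tested.

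Gata6 and Foxa2 lay near the threshold of this comparison. Gata6 was at 0.195 to 0.790 FPKM in SSCs and 0.646 to 8.91 in MASCs, a log2 difference of 1.26 (SE 0.47, limma adjusted p = 0.0742), and 5 of 6 MASC lines were above all SSC lines. Within Oct4-GFP lines it differed by 2.28 and within 129mix lines by 1.27. It was called with a strain block (1.86, limma adjusted p = 0.0202), with a pseudocount of 0.1, with a filter on low values, and without MASC.5 (1.47, limma adjusted p = 0.0389) or MASC.6 (1.44, limma adjusted p = 0.0483). Foxa2 differed by −1.50 (SE 0.62, limma adjusted p = 0.0995). Without SSC.3, the SSC line with the most fibroblast marker RNA and the only C57Bl/6J line, Foxa2 differed by −2.23 (limma adjusted p = 0.00276), and it was also called with a strain block (−2.18, limma adjusted p = 0.0166). The part of feeder RNA or strain in SSC.3 was not tested. For Gata4 the difference was 0.30, with a 95% interval from −1.25 to 1.85, and for Eomes it was −0.03, from −1.10 to 1.04. Cer1 had all 6 MASC lines above all SSC lines, as had 9.92% of all transcripts, but a difference of 0.98 that did not pass the test (SE 0.56, limma adjusted p = 0.233), with 4 of 6 MASC lines under 1 FPKM. The differences for Gsc, Cdx2 and Elf5 were 0.37, 0.22 and 0.05, none of which was called.

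**Figure D2:**
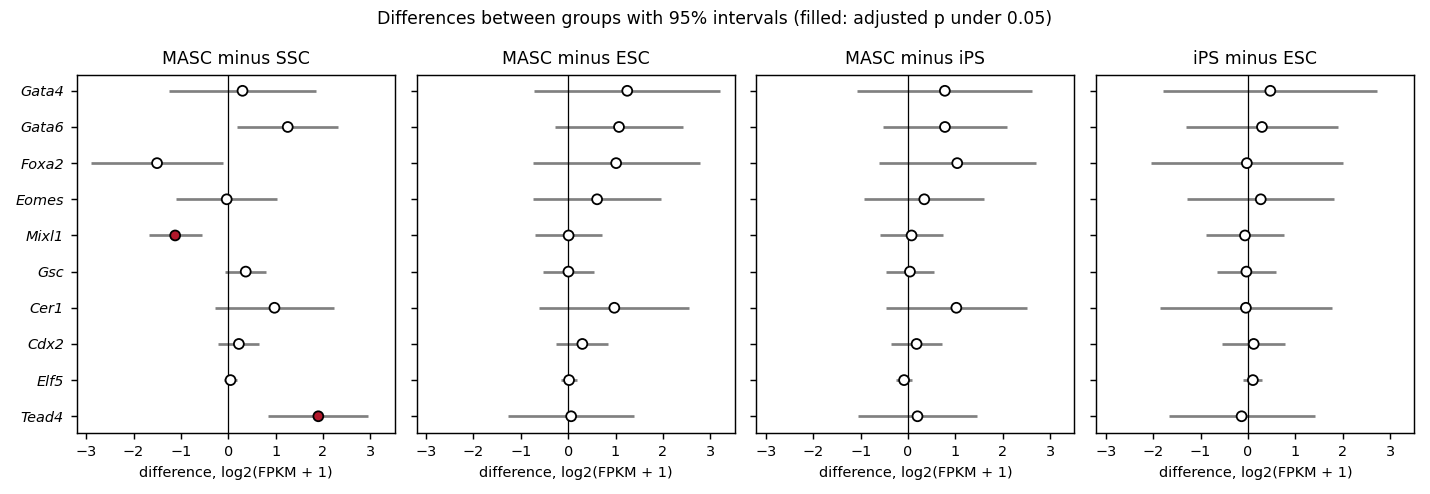
Differences of mean log2(FPKM + 1) between groups for the 10 regulators, with 95% intervals from limma and filled points where the adjusted p was under 0.05. Tead4 (1.90) and Mixl1 (−1.12) are filled in MASC minus SSC, and no point is filled in the comparisons among pluripotent cells, where the intervals of Gata4, Foxa2 and Cer1 reach above 2.

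The comparison of MASCs with ESCs and iPS cells asks whether converted germline cells hold lineage regulators at the level of other pluripotent lines. No regulator was called between MASCs and ESCs by limma, where the lowest unadjusted p was 0.106, and 0.0306% of all transcripts were called. All 10 differences were above 0, from 0.0052 to 1.25 with a median of 0.45, against a median of 0.0011 over all transcripts, but those of Mixl1, Gsc, Elf5 and Tead4 turned negative under at least 1 alternative. The largest were Gata4 (1.25, 95% interval −0.71 to 3.21), Gata6 (1.07, −0.27 to 2.42), Foxa2 (1.01, −0.75 to 2.77) and Cer1 (0.97, −0.61 to 2.55). With 2 ESC lines, these intervals leave room for log2 differences above 2. Against ESCs of the same strain, Gata4 was higher by 2.25 in the Oct4-GFP lines and by 1.48 in the 129mix lines, and Gata6 by 2.00 and 1.15, each with 2 MASC lines against 1 ESC line. Tead4 differed by −0.22 and −0.09 in the same within-strain comparisons.

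Between MASCs and iPS cells, no regulator was called, and 2.02% of all transcripts were. Differences ran from −0.08 for Elf5 to 1.04 for Foxa2, with a 95% interval for Foxa2 of −0.62 to 2.69. Within the 129mix strain, with 2 lines of each cell type, the difference was 1.38 for Gata4 and 1.03 for Gata6. This comparison uses the same MASC lines as the one with ESCs. Between iPS cells and ESCs no regulator was called either, against 0.398% of all transcripts, and the lowest unadjusted p was 0.278. The differences ranged from −0.14 for Tead4 to 0.47 for Gata4. In all 3 comparisons among pluripotent cells, 0 of 10 regulators had an unadjusted p under 0.05 in limma.

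When the 6 MASC lines were set against the 4 ESC and iPS lines together, Foxa2 was higher in MASCs by 1.02 on the log2(FPKM + 1) scale, with 6 of 6 MASC lines above all 4 others (exact permutation p = 0.0143, two-sided, not adjusted). Over all transcripts, 8.41% had an unadjusted p under 0.05 in this test, 4.78% with MASCs higher, and 1 of 10 regulators is therefore near the background. Lines did not overlap, with MASCs higher, for Foxa2 and Cer1, and for 1.3% of all transcripts. For Cer1 the difference was 1.00 (exact permutation p = 0.129). Foxa2 stayed under 0.05 when each line was left out in turn (exact permutation p from 0.00794 to 0.0238). Gata4 and Gata6 had 4 of 6 MASC lines above all ESC and iPS lines, with differences of 1.01 and 0.93 (exact permutation p = 0.143 and 0.124). Gata6 passed without MASC.5 (1.14, exact permutation p = 0.0476), and the Eomes transcript used here passed without MASC.1 (0.60, exact permutation p = 0.0397). With all lines kept, its difference was 0.48 (exact permutation p = 0.129). With both Eomes transcripts summed and all lines kept, it was 0.23 (exact permutation p = 0.314). In the absence of MASC.5, the Elf5 transcript used here was lower in MASCs (−0.08, exact permutation p = 0.0238), while its second transcript was higher in those MASC lines than in ESC.2 and both iPS lines, and highest in ESC.1 (0.0794 FPKM). With both Elf5 transcripts summed and all lines kept, the difference was −0.0059 (exact permutation p = 0.924).

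The spread among MASC lines was larger than for most transcripts. On the scale used, transcripts near 0 have a small SD, and no comparison was made with transcripts of like level. The median SD of log2(FPKM + 1) over the 6 lines was 0.48 for the 10 regulators and 0.19 over all 32661 transcripts, and 8 of the 10 lay above the latter. The SD was 1.19 for Cer1, 1.15 for Gata4 and 0.98 for Gata6, and 1.82%, 1.99% and 2.79% of all transcripts had a larger one. In FPKM, the highest MASC line exceeded the lowest 123-fold for Cer1, 19.1-fold for Gata4 and 13.8-fold for Gata6, and the Cer1 ratio rests on the near-zero value of MASC.2. Tead4 (5.02-fold) and Eomes (3.41-fold) spread less. Mixl1 and Elf5 had SDs of 0.09 and 0.12, below the median of all transcripts, at levels near 0.

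The lines did not rank alike for all regulators. MASC.2 was the highest MASC line for Gata4, Gata6, Foxa2 and Cdx2 and the lowest for Tead4 and Cer1. MASC.6 was highest for Mixl1, Gsc and Cer1, and MASC.5 for Eomes, Elf5 and Tead4. Strain is a part of this spread that could be tested, with 2 lines for each of 3 strains. No regulator was called for strain by limma's F test adjusted over all transcripts (1.57% of all transcripts were). The lowest values by limma's F test were an adjusted p of 0.193 for Eomes and of 0.205 for Cer1. Gata4 lines of the same strain were themselves apart, with 2.24 and 10.7 FPKM in the Oct4-GFP lines. Whether the change from SSC to MASC differed between Oct4-GFP and 129mix lines could hardly be tested, since 1 SSC line was 129mix. For Eomes the difference between MASCs and SSCs was −1.32 within Oct4-GFP and 0.47 within 129mix lines (limma adjusted p of the interaction 0.519, the lowest of the 10), and 128 of 32661 transcripts were called for this interaction.

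Gata4 and Gata6 moved together across the pluripotent lines. Over the 10 MASC, ESC and iPS lines, Pearson's r of log2(FPKM + 1) was 0.968 (permutation p = 2e-05, adjusted over the 14 pairs tested 0.00028) and Spearman's rho was 0.952 (permutation p = 0.00013, adjusted 0.00182). Without MASC.2 and MASC.3, the lines farthest from the median of Gata4, r was 0.887. Within the 6 MASC lines r was 0.974 (exact permutation p = 0.00417, adjusted 0.0583) and rho 0.943. The lines are not fully independent, since several share a strain. No other pair passed the adjustment. The r of Foxa2 was 0.759 with Gata4 and 0.774 with Gata6 (adjusted permutation p = 0.0519 for both), and fell to 0.178 and 0.204 without MASC.2 and MASC.3, so that both relations rest on these 2 lines. Their rho was 0.612 with Gata4 and 0.733 with Gata6 (permutation p = 0.0667 and 0.0204, adjusted 0.187 and 0.0913). Because Foxa2 did not overlap between MASCs and the other lines, the r within the 6 MASC lines is also given, 0.705 and 0.704 (exact permutation p = 0.114 and 0.110). Eomes and Cer1, the pair that was highest in the Gt(ROSA26)Sor-lacZ lines, had an r of 0.658 (permutation p = 0.0482, adjusted 0.169) and a rho of 0.733 (permutation p = 0.0207, adjusted 0.0913), and an r of 0.736 without MASC.5 and ESC.1.

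**Figure D3:**
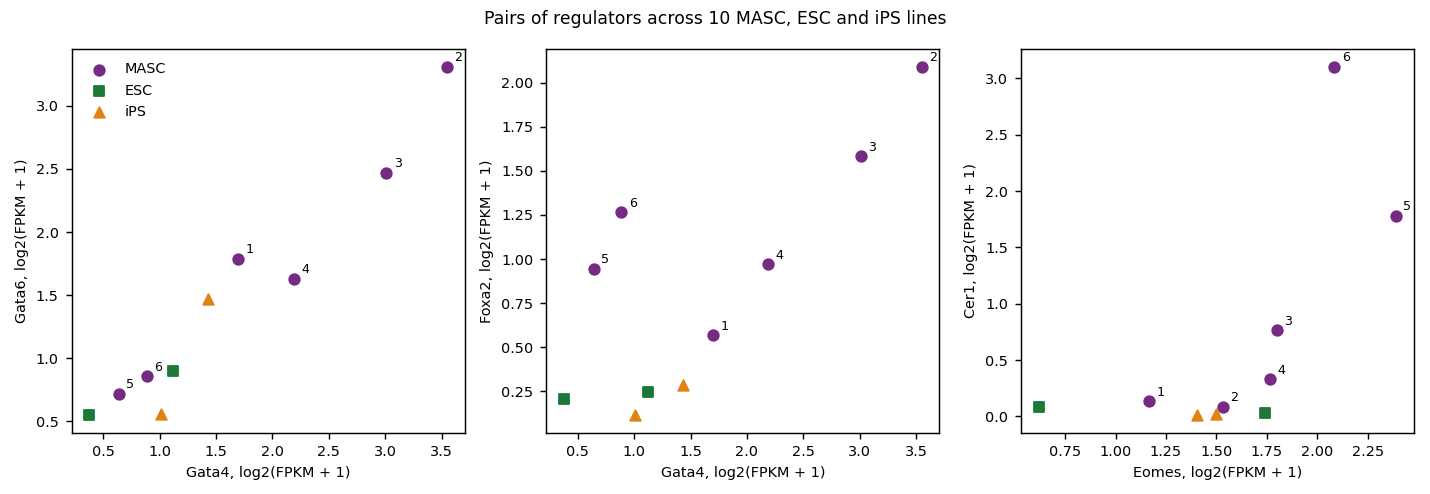
Levels of 3 pairs of regulators on the log2(FPKM + 1) scale in the 10 MASC, ESC and iPS lines, with MASC lines numbered. Gata4 and Gata6 rise along 1 line from ESC.1 to MASC.2 (r = 0.968), Foxa2 is higher in each MASC line than in every ESC and iPS line, and Cer1 is raised in MASC.5 and MASC.6.

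The transcripts most like each regulator were sought among those at 1 FPKM or more in at least 2 of the 10 lines, by Pearson's r over the 10 lines. Mixl1, Cdx2 and Elf5, which did not reach 1 FPKM in any of these lines, were left out. These are the extremes of a search over all such transcripts and are given as a description. For Gata4 they were Gata6 (0.968), the heparan sulfate sulfotransferase Hs3st1 (0.960) and the calcium-binding protein S100g (0.958), and for Gata6 they were Gata4, Bag5 (0.927) and S100g (0.926). Foxa2 was most like Leprel1 (0.979), Elof1 (0.961) and Men1 (0.943), and Cer1 was most like Ddx25 (0.974), Hoxb3 (0.968) and Nkx6-1 (0.959). Eomes was followed by Ap1ar (0.955), Nup98 (0.949) and Thap2 (0.948), Gsc by Tbc1d5 (0.946), Reep6 (0.944) and Arhgef2 (0.908), and Tead4 by Ccny (0.966), Gorab (0.964) and Dopey1 (0.962).

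Other genes of the same lineages were taken from lists of 22 endoderm, 24 streak and mesoderm, and 23 trophoblast genes. Between MASCs and SSCs, where 30.9% of all transcripts were called (11.4% higher and 19.5% lower), 4 endoderm genes rose, 2 fell and 16 did not pass, so that 27.3% of the list was called. Lama1, a laminin chain of basement membrane, rose by 2.72, Otx2, a homeodomain factor of epiblast, anterior visceral endoderm and brain, by 2.39, and Hhex, a homeodomain factor of endoderm and blood, fell by 2.37 on the log2(FPKM + 1) scale (limma adjusted p = 0.0107, 0.000703 and 0.00216). Of the streak and mesoderm genes 7 rose, 6 fell and 11 did not pass, with 54.2% called. Foxh1, a partner of SMADs in Nodal signalling, rose by 5.28, Lefty1, a Nodal antagonist, by 5.21, and Foxf1, a factor of lateral mesoderm, fell by 5.45 (limma adjusted p = 9.91e-10, 2.69e-05 and 1.69e-05). Foxh1 and Lefty1 are also known in undifferentiated pluripotent cells. Of the trophoblast genes 7 rose, 0 fell and 16 did not pass. The 30.4% called was about the share of all transcripts in either direction, but by direction 30.4% rose and 0% fell, against 11.4% and 19.5% of all transcripts. The called genes were led by the epithelial keratins Krt8 (6.33) and Krt18 (4.43) and by the homeobox gene Rhox6 (2.43), with limma adjusted p = 7.11e-06, 0.000931 and 0.00902. Yap1, the coactivator of Tead4, rose by 1.27 (limma adjusted p = 4.77e-05), and this gene was named after its value was seen. The median differences of the lists were 0.18, −0.02 and 0.63, against 0.26 for the 10 regulators and −0.0048 for all transcripts. Reads that map to several places were excluded by the authors, so the levels of Lefty1 and Rhox6, which have near-identical relatives, are uncertain. Between MASCs and ESCs none of the 69 list genes was called. Foxh1 was higher in MASCs than in iPS cells by 1.16 and lower in iPS cells than in ESCs (difference −0.78, limma adjusted p = 0.000336 and 0.0247). Tpbpa differed in the same 2 comparisons (−0.15 and 0.15), at 0.0925 and 0.121 FPKM in iPS lines and listed at 0 in every MASC and ESC line.

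Single list genes were also followed by line, and those named here were chosen after their values were seen. The share of all transcripts that were highest in each line was not counted, so counts of list genes by line have no background. MASC.2 was the highest of the 10 pluripotent lines for 8 of the 22 endoderm genes. Among these, Cubn and Amn, which encode an endocytic receptor pair of visceral endoderm and kidney, were at 3.82 and 10.9 FPKM in MASC.2, against 1.01 and 2.34 or less in the other 9 lines. Lama1 was at 36.0 FPKM in MASC.2 and 30.0 in MASC.3. The basement membrane genes Lamb1 and Col4a1 were nearly tied, at 77.2 and 82.4 FPKM in MASC.2 and 74.9 and 73.1 in MASC.1, and were at 132 and 199.6 in MEFs. Sox17 was at 3.51 FPKM in MASC.2, 3.53 in MASC.3 and 1.34 in MASC.4, against 0.256 or less in ESC and iPS lines. Over the 10 lines, the r with Gata4 of the 15 endoderm genes that reached 1 FPKM in any line ran from −0.632 (Otx2) to 0.928 (Sox17), with a median of 0.636.

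Among the 24 streak and mesoderm genes, MASC.6 was highest for 6, T, Lhx1, Foxc1, Meox1, Isl1 and Fgf5, and MASC.1 for another 6, Fgf8, Nodal, Lefty2, Hand2, Twist1 and Snai1. These counts also lack a share over all transcripts. T (Brachyury) was at 3.63 and 5.79 FPKM in MASC.5 and MASC.6, at 1.08 to 3.10 in the other MASC lines and at 0.549 or less in ESC and iPS lines. Lhx1 was at 0.926 and 2.29 FPKM in MASC.5 and MASC.6 and at 0.310 or less in the other 8 lines. The r with Cer1 of the 16 streak and mesoderm genes that reached 1 FPKM ran from −0.671 (Nodal) to 0.979 (Lhx1), with a median of −0.00065 and 8 of 16 below 0. The endoderm list gene Cxcr4 had an r of 0.919 with Cer1.

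**Figure D4:**
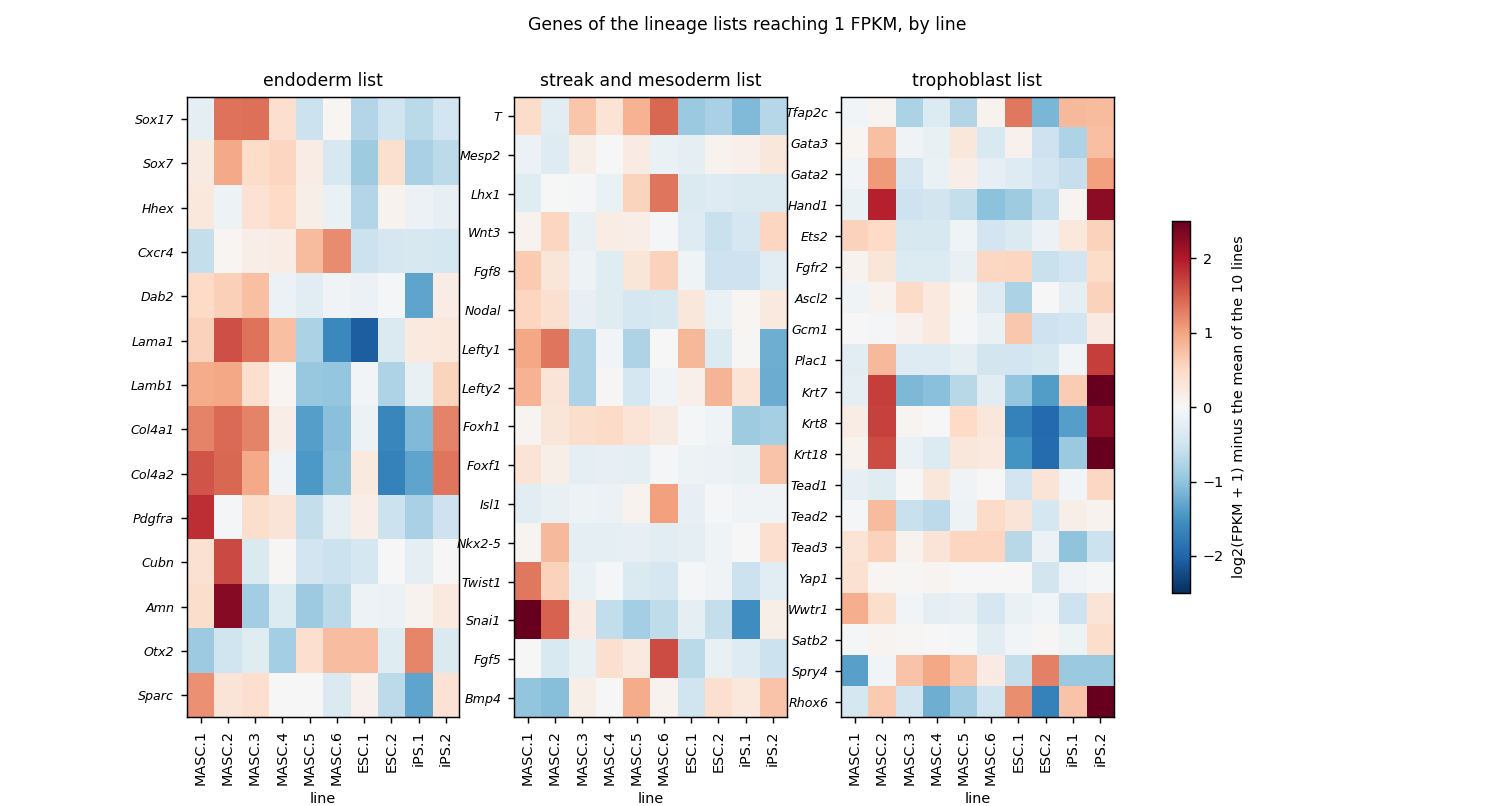
Reported genes of the endoderm, streak and mesoderm, and trophoblast lists that reached 1 FPKM in at least 1 of the 10 pluripotent lines, as log2(FPKM + 1) minus the mean of the gene over those lines. Red marks a line above the mean. MASC.2 is red for Cubn and Amn, MASC.6 for T, Lhx1 and Fgf5, and iPS.2, at 487 FPKM of Krt8, for trophoblast keratins.

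Fibroblast marker RNA differed between the MASC lines, and its part in these patterns was not tested. The fibroblast sum was highest in MASC.1 (1289), followed by MASC.2 (162) and MASC.6 (64.8), and was 21.9 to 41.6 in the other 3. MASC.1 was at 2.24 FPKM of Gata4 and 0.0990 of Cer1, and MEFs were at 0.0754 and 0.0347. Among endoderm and streak genes, MASC.1 was the highest pluripotent line for Col4a2, Pdgfra, Sparc, Fgf8, Nodal, Lefty2, Hand2, Twist1 and Snai1. In MEFs, Fgf8 and Nodal were listed at 0 and Lefty2 was at 0.266 FPKM. The rest of these genes were at 2.93 FPKM (Hand2) or more in MEFs. Without MASC.1, Tead4 and Mixl1 were called between MASCs and SSCs, and none of the 10 regulators was called between MASCs and ESCs or iPS cells by limma.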

How the data were processed

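RNA of 17 samples (4 SSC, 6 MASC, 2 ESC, 2 iPS, 2 HSC and 1 MEF) was sequenced from Illumina TruSeq libraries. The authors aligned reads to mm9 with TopHat2 2.0.11, excluded duplicate and multi-mapping reads, and deposited Cufflinks FPKM values per RefSeq transcript with upper-quartile and GC normalization, with confidence bounds. The deposited read coverage per base comes from the same Cufflinks output, and the Cufflinks version and strandedness are not given in the sources used here. No counts were used, so the total depth is unknown.

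Here, 32661 transcripts (23891 symbols) were kept of 33262 in each table, and 601 repeated loci were dropped. Differences were tested with limma 3.58.1 (R 4.3.3) on log2(FPKM + 1), adjusted by Benjamini-Hochberg over all transcripts, and called under 0.05. MASC against SSC and against ESC came from one fit of 12 lines, and the comparisons with iPS cells from a fit of 14. On this scale changes of low genes are understated. Exact permutation tests used all 210 splits of 6 and 4 lines, and correlations used 100000 resamples (scipy 1.17.1). The labels give replicates by number and strain, and the paper describes 6 MASC and 2 ESC lines, which it says were subcloned. Where nothing says that replicates came from separate animals or derivations, the p-values measure only the spread between these samples. Scripts were tested on simulated data. The members and lists were chosen with earlier results of these data known. Named were the 10 regulators, the 3 genes of each list with the largest called difference per comparison, the 3 transcripts most like each regulator, and markers. Promoter windows came from the mm9 genome, with the strand from GENCODE vM1. Alternatives were a pseudocount of 0.1, a filter of 1 FPKM in 2 samples, quantile normalization, trend and robust settings, transcripts summed per gene, all 17 samples, replicate and strain blocks, and a second rule (log2 difference of at least 2 with unadjusted p under 0.05). Each line was also left out in turn. 1 gene of the endoderm list is counted with its list and is not reported here by itself.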

Additional observations from a re-analysis of the deposited data

Results flagged for a closer look

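Elf5 in MASC.5, at 0.234 FPKM, lay far from the other 5 MASC lines, in which this transcript (NM_010125) was at 7.58e-05 FPKM or less. The second Elf5 transcript (NM_001145813) was at 0.0193 to 0.0664 FPKM in those 5 lines and at about 0 in MASC.5. Elf5 in SSC.1, at 0.00902 FPKM, stood apart from the other SSC lines, in which it was listed at 0. The distance of the highest or lowest line from its neighbour was checked in 20 groups of lines, and 2 were marked. Both were Elf5, where the other lines were at or near 0, so that a single higher value stands apart. How often chance marks a group was not measured.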

How the results depend on the processing

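The SSC and MASC lines share numbers, and the sources used here do not say whether these mark pairs. The correlation of deviations from the group mean was 0.185, −0.225, −0.219 and 0.135 for numbers 1 to 4. It ran from −0.322 to 0.339 for lines of different number, so it cannot decide whether lines are paired. With the number as a replicate block, 1 regulator in place of 2 was called between MASCs and SSCs, since Tead4 passed the threshold no more (1.69, limma adjusted p = 0.147) and neither did Mixl1 (−1.13, limma adjusted p = 0.0628), while Gata6 was called (1.76, limma adjusted p = 0.0430). Under this block transcripts called between MASCs and SSCs fell from 3739 to 2271 higher and from 6360 to 3674 lower. Under the second rule 0 regulators and 16 list genes were called in place of 2 and 26. List genes called between MASCs and ESCs numbered 2 in place of 0 under the second rule, between MASCs and iPS cells 1 in place of 2 under the replicate block, and between iPS cells and ESCs 1 with a pseudocount of 0.1, 0 with the filter, 0 with the replicate block, 1 under the second rule and 1 to 1 with a line left out, in place of 2. With a pseudocount of 0.1, 2 regulators in place of 1 were under 0.05 between MASCs and the ESC and iPS lines together, with Cer1 added (2.59, exact permutation p = 0.0429). This count was 1 to 3 with each line left out. Leaving out MASC.5 gave 0 to 1 regulator between MASCs and iPS cells, with Elf5 called (−0.14, limma adjusted p = 0.0448). Correlated pairs numbered 3 in place of 1 with quantile normalization and 3 without MASC.6, an alternative chosen after seeing the data.

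The regulators whose direction turned all had differences that were not called. Between MASCs and SSCs these were Eomes (0.10 with the low pseudocount, 0.22 with quantile normalization, −0.43 to 0.43 with a line left out), Elf5 (−0.0032 with the replicate block, −0.0064 with the strain block, −0.0032 to 0.058 with a line left out) and Gata4 (−0.11 to 0.67 with a line left out). Between MASCs and ESCs they were Mixl1 (−0.015 quantile, −0.0095 replicate block, −0.0022 strain block, −0.042 to 0.061 with a line left out), Gsc (−0.0044 low pseudocount, −0.026 quantile, −0.026 replicate block, −0.14 strain block, −0.27 to 0.28 with a line left out), Elf5 (−0.031 replicate block, −0.032 strain block, −0.032 to 0.051) and Tead4 (−0.17 replicate block, −0.15 strain block, −0.29 to 0.42). Between MASCs and iPS cells they were Gsc (−0.042 low pseudocount, −0.011 quantile, −0.28 strain block, −0.078 to 0.11), Tead4 (−0.031 replicate block) and Cdx2 (−0.040 to 0.40). Between iPS cells and ESCs, Gsc gave 0.037 with the low pseudocount, 0.14 with the strain block and −0.31 to 0.25 with a line left out, and the ranges of Gata6, Foxa2, Eomes, Cdx2 and Tead4 were −0.16 to 0.75, −0.11 to 0.060, −0.29 to 0.83, −0.099 to 0.34 and −0.49 to 0.22. Between MASCs and the ESC and iPS lines together, Gsc gave −0.023 with the low pseudocount, −0.016 with quantile normalization and −0.095 to 0.12 with a line left out, Elf5 −0.084 to 0.0032 and Tead4 −0.032 to 0.36. Among pairs, the r of Mixl1 with Gsc turned to −0.0935 with the low pseudocount, −0.154 with quantile normalization and −0.760 without MASC.6. Without MASC.6 the r was −0.227 for Mixl1 with Cer1, −0.052 for Gsc with Cer1 and 0.0093 for Cdx2 with Elf5, and without MASC.2 it was 0.016 for Foxa2 with Gsc, 0.016 for Cdx2 with Elf5 and 0.255 for Cdx2 with Tead4. The causes were not tested. With 2 ESC and 2 iPS lines, and regulators near 0 FPKM, these comparisons resolve only large differences.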

Other observations

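Trophoblast list genes had their highest values among the 10 pluripotent lines in iPS.2 for 11 of 23 genes, although Cdx2 (0.484 FPKM) and Elf5 (0.143 FPKM) were under 1 FPKM there. The share of all transcripts that were highest in iPS.2 was not counted, so this count has no background. Krt8 was at 487 FPKM in iPS.2 and 339 in MASC.2, against 104 to 146 in the other 5 MASC lines, 39.1 in iPS.1, 31.3 in ESC.1 and 25.9 in ESC.2. Krt18 was at 543 FPKM in iPS.2 and 280 in MASC.2. Krt7 was at 79.6 FPKM in iPS.2 and 24.6 in MASC.2, and at 10.9 or less in the other 8 lines. Hand1, a factor of trophoblast giant cells and of mesoderm, was at 12.5 FPKM in iPS.2 and 10.0 in MASC.2, and at 1.98 or less in the others. These genes were chosen after their values were seen.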
